A study of Carassius auratus with 4 samples.

Results

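Ion channels, pumps and exchangers were measured in goldfish (Carassius auratus) pituitary cells exposed to secretoneurin, a peptide cut from secretogranin II. They comprised 58 of the 8100 gene probes on a cDNA array, chosen by words in the printed probe name (channel, sodium/potassium-transporting, Na+/K+, calcium-transporting ATPase, FXYD, anion exchange or cotransporter), without GABA genes and the vacuolar ATPase. The choice was made with earlier results of these data known. The 58 probes carried names of 33 genes in 13 roles. Among the roles, 11 probes were for plasma membrane calcium pumps, 8 for alpha subunits of the sodium/potassium pump, 9 for potassium channels and 7 for the voltage-dependent anion channels (VDAC) of the outer mitochondrial membrane. The word "channel" also brought in 2 probes of proteins with a potassium channel tetramerisation domain, which need not be channels.

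Channels let ions run down their gradients, pumps build those gradients with ATP, and exchangers use one gradient to move another ion. In pituitary hormone cells, voltage-gated calcium, sodium and potassium channels shape the action potentials that let calcium in, and calcium entry triggers hormone release. The sodium/potassium pump restores the resting gradients, and plasma membrane calcium pumps carry calcium back out of the cell.

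On each of the 4 arrays, dispersed pituitary cells that had received the goldfish peptide at 10 nM for 12 h were set against control cells. Both RNAs came from pituitaries of males and females. The control cells are labelled as having had no incubation, and the labels do not say whether they were kept for the same time without the peptide, so time in culture and secretoneurin cannot be told apart. The RNA of secretoneurin cells was in the Cy5 channel of replicates 1 and 3 and in the Cy3 channel of the other two. Nothing in the labels says that the pairs came from separate cultures, so each p-value rests on the spread among these samples alone, and that spread may be technical. In a mixed cell preparation, fewer cells of a type and less RNA per cell cannot be told apart.

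The tissue was checked with 4 pituitary hormone probes, of which 3 were above background in both RNAs on all 4 arrays. Of the probes for other cells, 13 of 89 for skeletal muscle, 0 of 13 for red blood cells and 0 of 58 for nerve and glia were above background to that extent. Among all 8100 probes, 839 were. In each RNA on at least 1 array, 61, 4 and 25 of these probes for other cells were above background, beside 4062 of all 8100. The counts therefore do not show that other cells were absent. The median log2 ratios of these 4 lists were -0.047, 0.0019, 0.043 and 0.011. Replicates 2 and 4, which carry the dyes the same way round, had opposed ratios (r = -0.61 across 8026 probes, which share the array, the dyes and the normalization), while replicates 1 and 3 had r = 0.25 across 8016 probes. Between the dye orientations, r was -0.0061 for replicates 1 and 2 and 0.11 for 2 and 3. It was -0.11 for 1 and 4 and -0.25 for 3 and 4, so replicate 4 had a negative r with each other array. The dye orientation in the labels and in the file headers was the same on all 4 arrays, and the ratios were kept in that direction. Array number limits the precision: log2 ratios had a median SE of 0.076 among the 58 probes and of 0.071 among all tested probes.

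No ion channel, pump or exchanger probe passed the test for a difference between secretoneurin and control cells. A log2 ratio below is secretoneurin over control, and the test was limma's moderated test with a dye effect, adjusted by Benjamini-Hochberg over all 8089 probes tested (threshold 0.05). It called 0 of the 58 probes and 0% of all tested probes, and its adjusted p was 0.998 for each of the 58. At an unadjusted p under 0.05 in limma there were 2 of the 58, 1 higher (anion exchange protein 2) and 1 lower (an FXYD protein), where 2.76% of all tested probes fell under it. Both clones were named in the rule that chose the 58, with earlier results known. The median log2 ratio was -0.019, with 25 probes above 0 and 33 below, beside a median of 0.0014 over all tested probes, with 4089 above and 4000 below. On replicates 1 to 4 the median of the 58 probes was -0.069, -0.050, 0.0040 and 0.0053, so it was on both sides of 0. The spread of single probes on an array was similar to that of all probes, with an SD of 0.21, 0.27, 0.22 and 0.31 for the 58 probes and of 0.20, 0.32, 0.19 and 0.38 for all probes.

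Of the 58 probes, 29 gave spots that were dim in at least 1 RNA. A probe was counted as well above background in an RNA when its intensity exceeded the local background by 2 background SDs. None of the 58 probes met this in both RNAs on all 4 arrays, which 839 of the 8100 probes did. In each RNA on at least 1 array, it was met by 29 of the 58, which are called measured in both RNAs below. For most of these 29 it was not met in both RNAs on the same array, so their ratios had a dim side on every array. In secretoneurin RNA only it was met by 17, in control RNA only by 3 and in neither by 9, beside 4062, 2604, 257 and 1177 of the 8100 probes in these 4 classes. The mark followed the dye: with secretoneurin RNA in Cy5, 29 and 43 of the 58 were above background in secretoneurin RNA (replicates 1 and 3) and 7 and 7 in control RNA. With secretoneurin RNA in Cy3, 3 and 3 were above it in secretoneurin RNA (replicates 2 and 4) and 27 and 20 in control RNA. No fold is therefore given for the 29 probes that were dim in at least 1 RNA, and for the 20 dim in just 1 RNA the lower bound on a fold was under 1. Their ratios enter the counts and the medians but are not printed. The 29 probes measured in both RNAs had a median log2 ratio of -0.052, with 8 above 0 and 21 below, where the 4061 tested probes marked in the same way had one of -0.018, with 1708 above 0 and 2353 below.

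**Figure D1:**
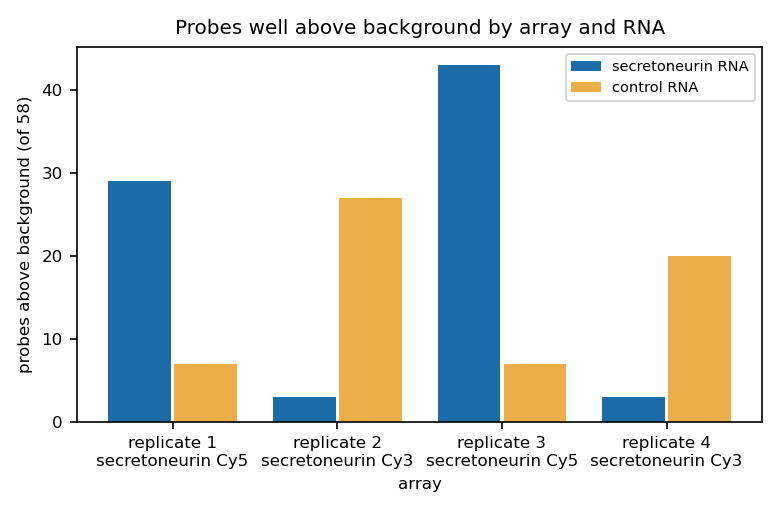
Number of the 58 ion channel, pump and exchanger probes well above background (y axis) on each array (x axis), with 1 bar for secretoneurin RNA and 1 for control RNA. On every array the taller bar belongs to the RNA in Cy5, as in replicate 3 with 43 against 7 and replicate 2 with 27 against 3.

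Anion exchange protein 2, which swaps bicarbonate for chloride across the plasma membrane, gave the 1 probe of the 58 whose signals did not overlap between the groups (0.841% of all tested probes had no overlap). Probe 54f08 had log2 signals of 7.98, 8.17, 7.99 and 7.96 in secretoneurin RNA on replicates 1 to 4 and of 7.77, 7.89, 7.78 and 7.87 in control RNA. The secretoneurin signal was the higher one on all 4 arrays, and the lowest of them lay just above the highest control signal. Means were 8.02 and 7.83 (limma unadjusted p = 0.0281, adjusted p = 0.998). The probe was above background on 2 arrays in secretoneurin RNA and on 0 in control RNA, so no fold is given. Its 2 spots differed: the first was brighter in secretoneurin RNA on all 4 arrays, and the second only on replicates 1 and 4. Anion exchange protein 4, of the same family, was measured by probe 18j12, which was dim in secretoneurin RNA, with log2 signals from 7.69 to 7.94 there and from 7.74 to 8.12 in control RNA. These groups overlapped.

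FXYD proteins are small membrane proteins that tune the sodium/potassium pump. Probe 18f22, for an FXYD domain-containing ion transport protein whose printed name gives no number, had log2 signals of 7.73, 7.77, 7.89 and 7.71 in secretoneurin RNA and of 8.09, 7.82, 8.29 and 7.77 in control RNA. The control signal was the higher one on all 4 arrays, by more on replicates 1 and 3 than on replicates 2 and 4, and the groups overlapped. Means were 7.78 and 7.99 (limma unadjusted p = 0.0130, adjusted p = 0.998). The probe was above background on 1 array in secretoneurin RNA and on 0 in control RNA, although control RNA was the brighter, so no fold is given. The dye effect in the same fit was towards Cy3 (limma unadjusted p = 0.0340). FXYD6, a member found in brain, had a probe measured in both RNAs (24g06), with log2 ratios of 0.043, -0.22, -0.044 and -0.27 and an estimate of -0.12 ± 0.054 (SE, 4 arrays). The first spot of 24g06 had ratios of 0.071, -0.51, -0.17 and -0.50 on replicates 1 to 4. The second had 0.015, 0.069, 0.082 and -0.030. The second FXYD6 probe, 59d05, was dim in control RNA. It had log2 signals from 7.73 to 8.01 in secretoneurin RNA and from 7.77 to 8.02 in control RNA.

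**Figure D2:**
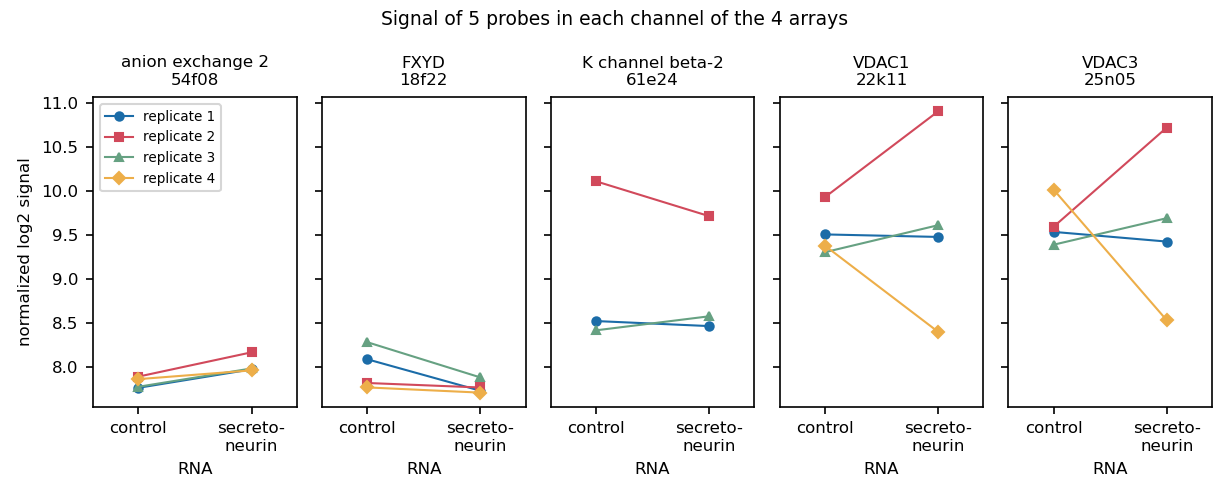
Normalized log2 signal (y axis) of 5 probes in control and secretoneurin RNA (x axis), 1 line per array. The lines of probe 54f08 all slope up and those of 18f22 all slope down at signals of 7.71 to 8.29, probe 61e24 has no value on replicate 4, and the lines of VDAC1 probe 22k11 and VDAC3 probe 25n05 run in opposite directions on replicates 2 and 4.

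Potassium channels end action potentials and hold cells at rest, and 9 probes covered them. The beta-2 subunit, which binds voltage-gated potassium channels inside the cell, was measured in both RNAs by probe 61e24. Its log2 signals were 8.47, 9.72 and 8.58 in secretoneurin RNA and 8.53, 10.11 and 8.42 in control RNA on replicates 1 to 3, with no usable spot on replicate 4. Replicate 2 was bright in both RNAs, and the groups overlapped. The log2 ratios were -0.057, -0.40 and 0.16, and the estimate was -0.17 ± 0.090 (SE, 3 arrays), which gives the single array in the Cy3 orientation as much weight as the other pair together. The value rested on 1 spot per array, and was -0.039 when spots marked to be ignored were kept and -0.098 with no dye effect. A second beta-2 probe, 59e20, was dim in both RNAs, with log2 signals from 8.15 to 9.03 and from 8.23 to 8.67.

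The other potassium channels measured in both RNAs had estimates near 0. Potassium channel subfamily F member 1, a modulatory subunit, stood at 0.068 ± 0.073 (SE, 4 arrays). The 2 probes of subfamily V member 2, also a modulatory subunit, stood at -0.093 ± 0.078 (39c10) and -0.049 ± 0.066 (39k11). Probe 39k11 was above background on 3 arrays in each RNA, with log2 signals from 8.76 to 9.70 in secretoneurin RNA and from 8.78 to 9.70 in control RNA. The calcium-activated potassium channel alpha subunit 1 and a clone named for voltage-gated potassium channel activity were dim in control RNA, and the subfamily T and subfamily C members (23n24 and 55p12, the latter without replicate 3) in both RNAs. Over the 9 probes, 5 were above 0 and 4 below. Both tetramerisation domain probes were dim in control RNA.

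Calcium channels admit the calcium that drives exocytosis. None of the 5 probes that carry the name of a calcium channel or a subunit of one could be given a ratio. The gamma-8 subunit, the L-type beta-2 subunit and the dihydropyridine-sensitive L-type channel were above background on 0 arrays in either RNA, with log2 signals between 7.61 and 8.11. The T-type channel, which opens at low voltage, had 2 probes that were dim in control RNA. Probe 18j04 had log2 signals of 8.44, 7.70, 7.88 and 7.76 in secretoneurin RNA and of 7.97, 7.75, 7.61 and 7.86 in control RNA. It was higher in secretoneurin RNA on replicates 1 and 3 and lower on replicates 2 and 4. On replicate 1 its first spot was higher in secretoneurin RNA and its second lower. The dye effect was towards Cy5 (limma unadjusted p = 0.0231). Short transient receptor potential channel 4, a cation channel linked to receptor signalling, was dim in control RNA, with log2 signals from 7.80 to 8.05 in secretoneurin RNA and from 7.71 to 8.26 in control RNA.

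Sodium channels carry the upstroke of the action potential. The pore-forming type VIII alpha subunit (58e10) had log2 ratios of 0.16, -0.30, 0.17 and 0.055 and an estimate of 0.021 ± 0.080 (SE, 4 arrays). Its 2 spots were opposed, at 0.61 and -0.30 on replicate 1 and at -0.77 and 0.18 on replicate 2. The probe was above background on 1 array in each RNA. The auxiliary beta-4 subunit had 2 probes that pointed opposite ways. Probe 19l09 stood at -0.16 ± 0.089 (SE, 4 arrays), with ratios of -0.20, -0.35, -0.14 and 0.068. Probe 52d08 was dim in control RNA and above 0 in the fit.

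Chloride intracellular channel 4, a protein found in soluble and membrane forms, had 2 probes that were both below 0 in the fit and both dim in secretoneurin RNA. Probe 29a10 was lower in secretoneurin RNA on all 4 arrays. Its log2 signals were 7.99, 7.85, 7.78 and 7.79 against 8.02, 7.90, 8.05 and 7.92 in control RNA, and the groups overlapped (limma unadjusted p = 0.149). Its 2 spots differed: the first was lower in secretoneurin RNA on all 4 arrays, and the second only on replicate 3. Probe 28k02, dim in control RNA too, had log2 signals of 7.45, 7.96, 7.75 and 7.84 against 8.11, 7.93, 8.01 and 7.85 (limma unadjusted p = 0.0565). Control RNA was the brighter on replicates 1, 3 and 4, on the last by the least, and the groups overlapped. On replicate 1 the 2 spots of 28k02 differed: both were lower in secretoneurin RNA, the second by far more than the first. Its dye effect was towards Cy3 (limma unadjusted p = 0.0518).

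VDAC proteins pass metabolites and ions through the outer mitochondrial membrane, and all 7 of their probes were measured in both RNAs. VDAC3 probe 25n05 had log2 signals of 9.43, 10.72, 9.69 and 8.53 in secretoneurin RNA and of 9.54, 9.60, 9.39 and 10.02 in control RNA. VDAC1 probe 22k11 had 9.48, 10.91, 9.61 and 8.40 in secretoneurin RNA and 9.51, 9.93, 9.31 and 9.38 in control RNA. Both probes were higher in secretoneurin RNA on replicate 2 and lower on replicate 4, and the groups overlapped. The log2 ratios of 25n05 were -0.11, 1.13, 0.30 and -1.48, with an estimate of -0.041 ± 0.46 (SE, 4 arrays) and a 95% confidence interval from -1.30 to 1.22. Those of 22k11 were -0.028, 0.97, 0.31 and -0.98, with an estimate of 0.069 ± 0.35 and an interval from -0.88 to 1.02. These 2 probes, singled out after their values were seen, had SEs above those of the other 56 probes.

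The opposed values were in both spots of each clone. The spots of 25n05 had log2 ratios of 1.18 and 1.07 on replicate 2 and of -1.45 and -1.52 on replicate 4, and those of 22k11 had 1.05 and 0.90 on replicate 2 and -0.98 and -0.98 on replicate 4. Ranked by the size of the gap between replicates 2 and 4, 25n05 was number 145 and 22k11 number 272 of 8026 probes, so many other probes on the array had a larger gap. The median absolute gap was 0.15 for the 58 probes and 0.17 for all. Across 57 of the 58 probes the 2 arrays had r = -0.51. This r includes 25n05 and 22k11, whose values lay far from those of the other probes. It was not computed without them, so it does not show that the other probes were opposed on these arrays. The estimates of both probes hung on these arrays: without replicate 2, 25n05 stood at -0.69 and 22k11 at -0.42. Without replicate 4 they stood at 0.61 and 0.56. Such a fit gives the array left alone in its dye orientation as much weight as the other pair together. It assumes that this array varies like the others.

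**Figure D3:**
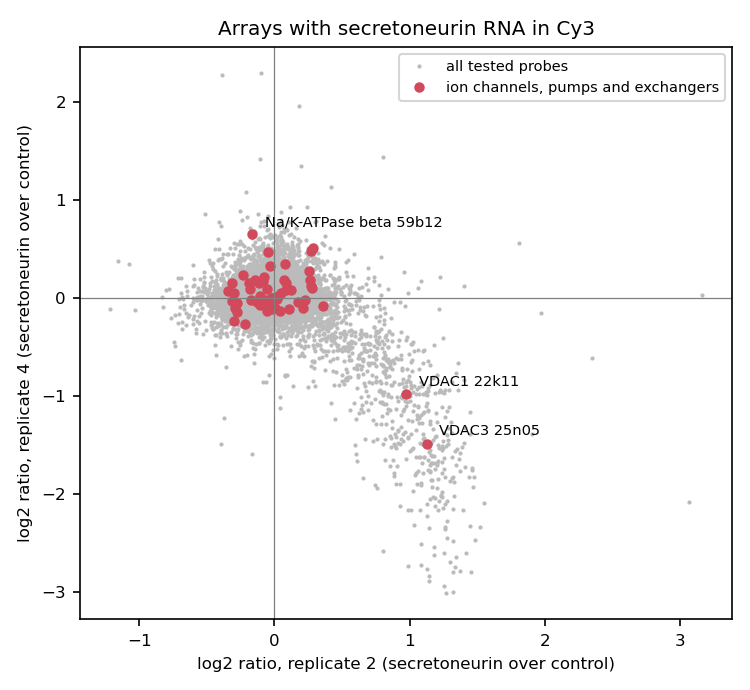
Log2 ratio of secretoneurin over control on replicate 2 (x axis) against replicate 4 (y axis), with all tested probes in grey and the ion channel, pump and exchanger probes in red. Most red points lie near 0 on both axes, and VDAC1 probe 22k11 (0.97 and -0.98) and VDAC3 probe 25n05 (1.13 and -1.48) lie in a tail of probes that are high on replicate 2 and low on replicate 4.

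The other VDAC probes had smaller gaps between these arrays, most of them in the other direction. The gap (replicate 2 minus 4) was 1.95 for 22k11 and 2.61 for 25n05. It was 0.11 for 14f20 and -0.47, -0.25, -0.33 and -0.084 for 28j06, 28l05, 30l09 and 43o05. The second VDAC1 probe, 30l09, had log2 ratios of -0.17, -0.14, 0.052 and 0.19 and an estimate of -0.020 ± 0.086 (SE, 4 arrays). On replicates 2 and 4 it went the opposite way to 22k11. The 3 probes of VDAC2 averaged -0.13, -0.10, 0.024 and 0.0999 on replicates 1 to 4, a mean of -0.026 ± 0.11 (SD, 4 arrays). Probe 43o05, named only as a voltage dependent anion channel, had ratios below 0 throughout, at -0.057, -0.13, -0.047 and -0.045 and an estimate of -0.070 ± 0.054 (SE, 4 arrays; limma unadjusted p = 0.261). Its log2 signals were 8.09, 8.10, 8.36 and 7.98 in secretoneurin RNA and 8.15, 8.23, 8.41 and 8.03 in control RNA, so the groups overlapped. On replicate 1 its 2 spots had log2 ratios of 0.18 and -0.30, and on replicate 4 of 0.011 and -0.10.

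The sodium/potassium pump has a catalytic alpha and a glycosylated beta subunit. Of the 8 alpha probes, 2 were above 0 and 6 below, with a median log2 ratio of -0.073. The 4 probes of alpha-1, the widely expressed form, averaged -0.14, -0.11, -0.078 and 0.12 on replicates 1 to 4, a mean of -0.054 ± 0.12 (SD, 4 arrays). They did not move alike: 24b16, 26l24 and 59j17 stood at -0.13 ± 0.084, -0.12 ± 0.097 and -0.052 ± 0.078 (SE, 4 arrays), and 23j16 at 0.085 ± 0.073. Leaving out 1 array moved 24b16 between -0.22 and -0.041 and 26l24 between -0.22 and -0.015. The ratios of 23j16 were -0.32, 0.28, -0.13 and 0.51, below 0 where secretoneurin RNA was in Cy5 and above 0 where it was in Cy3, and its dye effect (Cy5 over Cy3) was -0.31 (limma unadjusted p = 0.0120). On replicate 4 the 2 spots of 23j16 stood at 1.01 and 0.0044, and on replicate 1 those of 24b16 at -0.43 and 0.69. A probe named for the zebrafish gene alpha 1a.3 stood at -0.077 ± 0.072.

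Alpha-3, the form of neurons and other excitable cells, had 3 probes among the 58. One of them, 42m06, was measured in both RNAs, at 0.11 ± 0.057 (SE, 4 arrays), while 42n01 was dim in secretoneurin RNA and 60m09 in control RNA. A further 2 probes, 42a16 and 42p17, carry the name as Na,K-ATPase alpha subunit 3, which the words used for the choice do not catch. They stood at 0.11 ± 0.12 and -0.020 ± 0.070 (SE) and were above background on 2 arrays in each RNA. The beta-233 subunit had 3 probes, of which 39f12 was dim in control RNA and the other two pointed opposite ways. Probe 19m08 had ratios below 0 throughout, at -0.17, -0.011, -0.17 and -0.0063 and an estimate of -0.090 ± 0.052 (SE, 4 arrays; limma unadjusted p = 0.155). Its log2 signals were 8.54, 8.59, 8.23 and 8.69 in secretoneurin RNA and 8.71, 8.61, 8.40 and 8.70 in control RNA, so the groups overlapped. Probe 59b12 had ratios of 0.41, -0.16 and 0.65 on replicates 1, 2 and 4, no usable spot on replicate 3, and an estimate of 0.33 ± 0.21 (SE, 3 arrays). This was the highest estimate among the 58, and it was 0.18 when spots marked to be ignored were kept. It gives replicate 1, alone in its dye orientation, as much weight as the other pair together. The value on replicate 4 rested on 1 spot, and the 2 spots on replicate 2 stood at -0.51 and 0.18.

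Plasma membrane calcium pumps (PMCA) were the best covered group. PMCA2, a fast form of excitable cells, had 8 probes, of which 3 were above 0 and 5 below. The 5 measured in both RNAs averaged -0.11, -0.0076, -0.12 and 0.13 on replicates 1 to 4, a mean of -0.028 ± 0.11 (SD, 4 arrays), and 54b15, 54i11 and 54k19 were dim in control RNA. Over all 8 probes, dim ones included, the mean was 0.0074 ± 0.093 (SD, 4 arrays). The estimates of the 5 ran from -0.082 ± 0.052 (52p14) to 0.088 ± 0.061 (55h03) (SE, 4 arrays), with 52d22, 52l23 and 60n06 at -0.056, -0.033 and -0.058. Probe 52p14 was below 0 on replicates 1 and 3 and above 0 on replicates 2 and 4, with a dye effect of -0.16 (limma unadjusted p = 0.0325). PMCA1, a form found in most tissues, had a measured probe, 58i18, with log2 ratios of 0.14, -0.29, -0.76 and -0.10 and an estimate of -0.25 ± 0.17 (SE, 4 arrays), the lowest among the 58. The estimate was -0.026 without replicate 3 and -0.48 without replicate 1. On replicate 3 the 2 spots of 58i18 differed, at -0.18 and -1.33. The second PMCA1 probe (59h23) and the PMCA3 probe were dim in both RNAs.

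Of the cotransporters, the sodium/iodide cotransporter, known for iodide uptake in the thyroid, had log2 ratios of 0.18, -0.30, 0.34 and -0.24 (19n02). Its estimate was -0.0026 ± 0.059 (SE, 4 arrays), and its dye effect of 0.27 had an unadjusted p of 0.0102 in limma. The ratio followed the dye on all 4 arrays. In all, 5 of the 58 probes had a dye effect at an unadjusted p under 0.05 in limma, where 6.65% of all tested probes did, and 0 passed after adjustment. The sodium/phosphate cotransporter NaPi-IIb2, named from carp, was dim in control RNA.

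**Figure D4:**
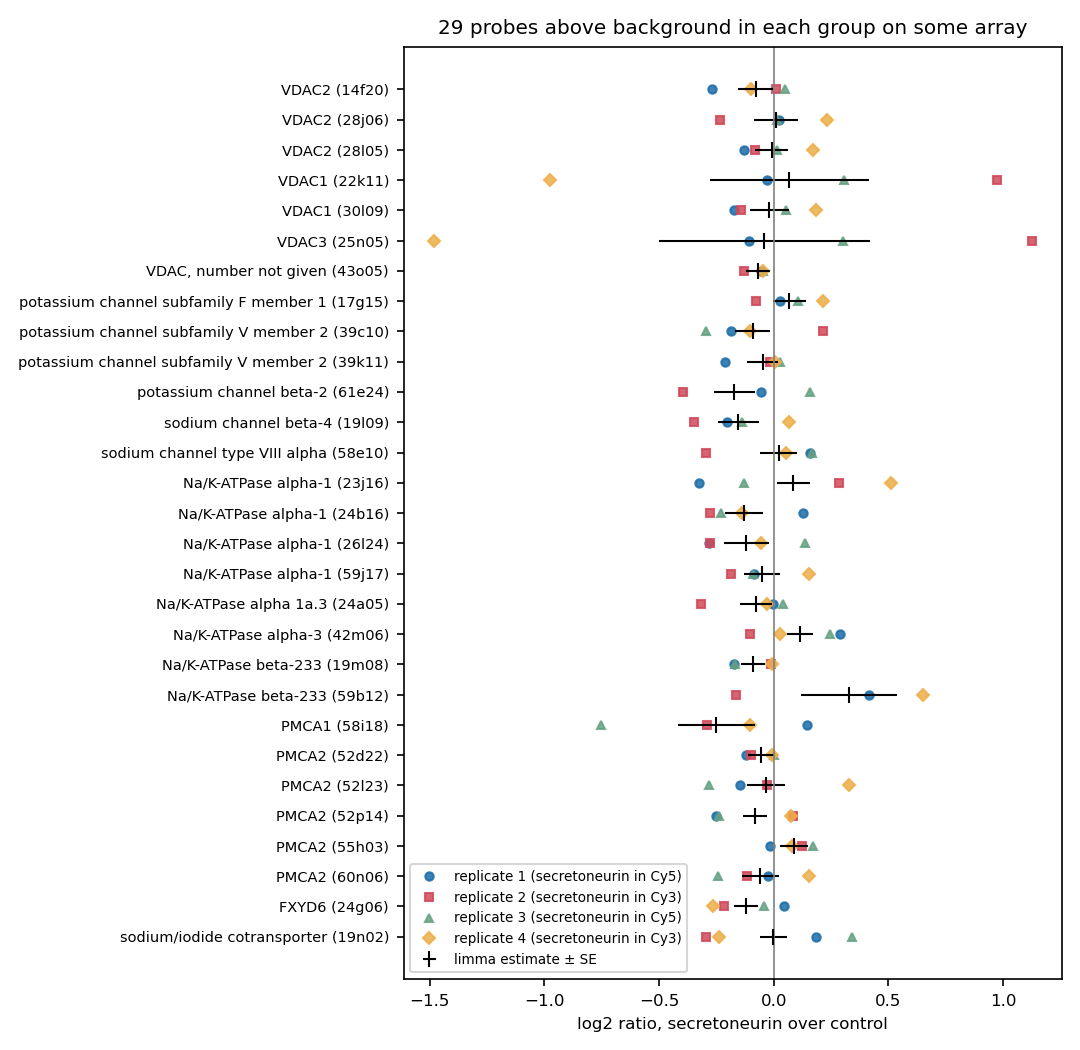
Log2 ratio of secretoneurin over control (x axis) for the 29 probes measured in both RNAs (y axis, gene and probe), with 1 symbol per array and the limma estimate with its SE in black. The estimates run from -0.25 (58i18) to 0.33 (59b12), and the widest scatter is that of VDAC1 probe 22k11 and VDAC3 probe 25n05.

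Direction across the arrays was seldom shared. Of the 55 probes with a value on all 4 arrays, 5 had 1 direction throughout, namely 54f08 above 0 and 18f22, 19m08, 43o05 and 29a10 below, where 10.7% of all probes with 4 values did. Other probes of the same gene name did not share it: 39f12 and 59b12, of the beta-233 subunit, and 28k02, of chloride intracellular channel 4, had ratios on both sides of 0. These directions are of averaged spots, and each of the 5 probes had at least 1 single spot that went the other way. A list of other probes by name, of which 55 of 56 were tested, held solute carriers, transporters and ligand-gated channels. The name search also brought in the further alpha-3 probes above and receptors that act through G proteins, such as metabotropic glutamate and muscarinic receptors. It held further ion pumps and exchangers too, namely calcium ATPases of the sarcoplasmic/endoplasmic reticulum and a sodium/potassium/calcium exchanger. The words used for the main choice do not catch their names, so the list was not free of pumps and exchangers. The list had a median log2 ratio of 0.013, with 32 above 0 and 23 below, and 0 of them were called in limma, with 0 at an unadjusted p under 0.05.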

How the data were processed

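Per the file headers, the deposited scanner files give uncorrected linear intensity for spot and local background in each channel, and mark some spots as ignored. A value table from the authors gives log2 ratios; the method is not given in the sources used. Set against the scanner values, its columns ran as Cy5 over Cy3 (r from 0.86 to 0.92), had means of 0 and medians of 0.0037, 0.031, 0.0037 and -0.046. It was used as an alternative.

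Background was corrected by normexp (offset 50) and ratios by whole-array loess with a span of 0.3 and 4 iterations (R 4.3.3, limma 3.58.1). Channel signals were scaled by Aquantile after loess. Ignored spots (421, 720, 981 and 718) and 1128 empty or control spots per array were left out, of 17328. Both spots of each clone were averaged (2 spots), and the 8089 probes having 3 or more arrays were fitted with a secretoneurin and a dye effect (lmFit and eBayes, 2 residual degrees of freedom, two-sided, Benjamini-Hochberg). Median intensities were 156 to 221 in Cy5 and 400 to 653 in Cy3. The fit was tested on simulated data with independent noise of the same SD for every probe and array. That setting differs from these arrays, whose spread was unequal and whose ratios were partly opposed, so it does not show how the fit performs on them.

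Members and lists were chosen with earlier results of these data known. Values per array were given for probes 61e24, 54f08 and 18f22 and for members of 1 direction on all 4 arrays. They were also given, as averages, for names with at least 3 measured probes. The plan was the average of each name with at least 3 probes, without the limit to measured ones. That would add alpha-3, beta-233 and the dim PMCA2 probes. Values per array of other probes were added after they were seen. The rule's further class, members above background in both RNAs on every array, was empty. Probe names are those of the array design. None held a RefSeq accession, and the symbol opening 2 of them was in the goldfish RefSeq table.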

Additional observations from a re-analysis of the deposited data

Results flagged for a closer look

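Probe 43o05, named only as a voltage dependent anion channel, had a log2 ratio of -0.13 on replicate 2, far from the other 3 arrays (-0.057, -0.047 and -0.045) by Dixon's test. It was the 1 such case among the 55 probes with 4 arrays that were tested, and chance gives about 1 in 20 (5% of groups). On replicate 1 the 2 spots of the probe lay further apart than these averages, at 0.18 and -0.30.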

How the results depend on the processing

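The count of 0 probes called held under print-tip loess, median centring without loess, no background correction, ignored spots kept, dim probes left out, no dye effect, an unmoderated test, the authors' deposited table, and without replicate 1 or 3. Leaving out 1 array gave 0 to 437 probes over the array (without replicate 2 346, 37 higher and 309 lower, and without replicate 4 437, 419 higher and 18 lower), 0 to 434 for the dye effect (434 and 322) and 0 to 2 among the ion channel, pump and exchanger probes (1 and 2). With the sign of replicate 4 turned, chosen after seeing the data because replicates 2 and 4 opposed each other, 1 probe was called for secretoneurin and 1 for the dye. Fits with an array left out, or with replicate 2 turned, lacked some of the 58 probes. The median of the probes fitted ran from -0.057 to 0.0054 over the arrays left out. It was 0.017 with replicate 2 turned (32 above 0, 25 below) and -0.049 with replicate 4 turned (18 above, 40 below). With dim probes left out it was -0.056 (2 above, 11 below). Whether 1 of these arrays is mislabelled was not tested. Of the 34 probes refitted, 18 kept their direction under the planned settings that gave a value, averaging over a name apart, and 16 turned in at least 1. For 61e24 and 59b12, with 3 arrays, no fit could leave out a further array. Leaving out 1 array moved 22 of the 27 measured probes with such fits by over 1.5 times. With print-tip loess, 28l05 turned to 0.082 and 30l09 to 0.012. With median centring, 22k11 turned to -0.013, 24a05 to 0.00032 and 19n02 to 0.026. Without background correction, 23j16 turned to -0.036 and 19n02 to 0.010, and with ignored spots kept 19n02 to 0.056. In the authors' table, 28l05, 30l09, 52d22 and 52l23 turned to 0.11, 0.032, 0.013 and 0.0081. Averaging the probes of a name turned 28j06 to -0.026, 30l09 to 0.025, 23j16 to -0.054, 42m06 to -0.017, 52d08 to -0.050, 19m08 to 0.027 and 52d22, 52l23, 52p14 and 60n06 to 0.0074, where the other probes of the name enter, dim ones included. With replicate 2 turned, 22k11 was -0.60, and with replicate 4 turned, 25n05 was 0.84.

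Leaving out 1 array at a time turned 13 probes, with ranges of -0.16 to 0.00065 for 14f20, -0.071 to 0.055 for 28l05, -0.10 to 0.062 for 30l09, -0.69 to 0.61 for 25n05, -0.11 to 0.011 for 39k11, -0.042 to 0.037 for 19n02, -0.42 to 0.56 for 22k11, -0.14 to 0.032 for 59j17, -0.12 to 0.056 for 52l23, -0.13 to 0.0093 for 60n06, -0.11 to 0.12 for 28j06, -0.0043 to 0.14 for 17g15 and -0.066 to 0.11 for 58e10. The cause of these turns was not tested. The main fit was already paired, because each ratio sets the 2 RNAs of 1 array against each other. No further pairing was possible with 1 group of arrays. Brightness limits all of this: 0 of the 58 probes were above background in both RNAs on all arrays.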
